A study of Mus musculus with 3 samples.

Results

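Nonclassical monocytes were taken from the blood library of mice killed 3 days after burn/tenotomy, and 183 cells met the definition, out of 2184 blood cells that passed the cell filter and 9725 cells in the 3 libraries of the series. A cell was kept with 200 or more detected genes and no more than 20% of its UMIs from mitochondrial genes. Members were chosen by measured transcript counts. A cell needed at least 1 unique molecular identifier (UMI, 1 counted transcript) of *Csf1r*, at least 2 UMIs summed over *Ace*, *Treml4* and *Eno3*, less than 5% of its UMIs from *S100a8* and *S100a9*, and no more than 1 UMI summed over *Cd3d*, *Cd3e* and *Cd79a*. The *Csf1r* condition left 622 of the 2184 cells, the summed UMIs of *Ace*, *Treml4* and *Eno3* left 193, the *S100a8* and *S100a9* limit left 189, and the lymphoid limit left 183. The share was 8.38% of the filtered blood cells, with an exact Clopper-Pearson 95% interval of 7.25 to 9.62. Among the 440 blood cells that held *Csf1r* and met the other conditions, 41.6% (36.9 to 46.4) also met the condition on *Ace*, *Treml4* and *Eno3*. Because measured transcripts chose these cells, the levels of those genes describe the choice and are no finding about it.

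The libraries came from 10-week-old male C57BL/6J mice that received a burn to the back and a full cut through the Achilles tendon, and no uninjured or sham library was analysed here. Unsorted cells were loaded from bone marrow, from the mononucleated fraction of blood on a density gradient, and from the enzymatically digested tendon injury site, with 1 library for each. The sources used here do not give how many mice were pooled. In blood 22542581 UMIs were counted over 2241 cells, a median of 8316 each, in bone marrow 49580625 over 1855 cells, and in the tendon 90621052 over 5629 cells. Blood shared 2 cell barcodes with bone marrow and 6 with the tendon, and bone marrow shared 1 with the tendon. With 1 library for each tissue there was no test and no p-value, cells were not treated as replicates, and all intervals cover counting error only.

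Mouse blood monocytes fall into classical cells, which carry the surface protein Ly6C and the chemokine receptor CCR2 and enter inflamed tissue, and nonclassical cells, which have lost both and crawl along the inner wall of vessels. Nonclassical monocytes derive from classical ones in the circulation and depend on the nuclear receptor NR4A1, and they hold on to the endothelium with the integrin LFA-1 and the fractalkine receptor CX3CR1. They clear debris from the vessel wall and live longer in blood than classical cells do. The classical comparator used below was made of 179 blood cells that met the same *Csf1r*, *S100a8* and *S100a9*, and lymphoid conditions, had no UMI of *Ace*, *Treml4* or *Eno3*, and had at least 2 UMIs of *Ly6c2* and *Ccr2* together. These cells were deeper, with a median of 18823 UMIs against 9427 in the nonclassical cells. The UMIs of a gene were therefore summed over a set of cells and scaled to 1000000 UMIs (CPM). Shares of cells holding a UMI were taken after thinning each cell to a fixed number of UMIs where that number is given. All other shares are at full depth and are not set to equal depth.

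Among markers that the definition did not use, those of nonclassical monocytes were frequent, but *Ly6c2* was held by 33.3% and *Ccr2* by 51.4% of the cells, against the label. *Nr4a1* was detected in 160 of the 183 cells (87.4%, 81.7 to 91.9), *Itgal*, the αL chain of LFA-1, in 179 (97.8%, 94.5 to 99.4), *Cx3cr1* in 163 (89.1%, 83.6 to 93.2), and *Spn*, the sialoglycoprotein CD43, in 151 (82.5%, 76.2 to 87.7). These shares are at full depth, where classical cells held *Nr4a1* in 50.8%, *Itgal* in 81.0%, *Cx3cr1* in 61.5% and *Spn* in 27.4% of cells. At 1000 UMIs per cell, *Itgal* was held by 57.4% of the nonclassical cells, 7.26% of the classical cells and 7.77% of the T cells, and *Cx3cr1* by 27.9%, 10.1% and 0.416%. *Itgal* was also held by 25.2% of NK cells and 26.2% of neutrophils, and *Spn* by 29.5% of nonclassical cells and 22.96% of NK cells. *Cd300e* was held by 23.5% of the nonclassical cells and by 0 of the 721 T cells, where 3 counts would be a share of 0.416% and the exact upper limit is 0.510%. Before thinning, 0.139% of T cells held it. T cells had a median of 8912 UMIs and B cells of 5186 before thinning, and 2 of the 183 nonclassical and 7 of the 179 classical cells also met the B cell definition. The lymphocyte genes *Cd3d*, *Cd3e* and *Cd79a*, which the definition limited, summed to no more than 1 UMI in any cell.

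The genes of the definition were unevenly spread over the cells. *Ace*, the angiotensin-converting enzyme (chromosome 11, 105967945 to 105989964, GRCm38), was held by 160 cells, with a lowest level of 0, a median of 537 and a highest level of 2562 CPM per cell. *Treml4*, a TREM-like receptor (chromosome 17, 48264295 to 48275360), was held by 167 cells, with a median of 239 and a highest level of 1369 CPM. *Eno3*, the muscle form of enolase (chromosome 11, 70657202 to 70662513), was held by 129 cells, with a median of 252 and a highest level of 2837 CPM. All 3 genes were found together in 114 cells (62.3%, 54.8 to 69.3), while 24 cells (13.1%, 8.59 to 18.9) held only 1 of them. Levels are compared between cells and not between genes, since 3′ counts are not set to gene length. *Csf1r*, the receptor for the survival factor M-CSF, ranged from 57.9 to 2552 CPM with a median of 605, against a median of 245 in the classical cells. The sum of *Ace*, *Treml4* and *Eno3* ranged from 2 to 45 UMIs with a median of 11.

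Cells on both sides of the threshold held much *Ly6c2* and little *Spn*. The 26 cells just inside it, with 2 UMIs of the 3 genes, held *Ly6c2* at 964 CPM and *Ccr2* at 1015.5 CPM, and the 54 cells just outside it, with 1 UMI, held them at 888 and 928 CPM. *Spn* was at 51.8 CPM inside and 34.9 outside, *Itgal* at 185 and 182, *Nr4a1* at 127 and 93.4, and *Cd300e* had no UMI in either set. The sets differed in other genes in both directions. *Fn1* was at 786 CPM inside and 2333 outside, *S100a8* at 386 and 2516, *Cd74* at 2302 and 483, *Bcl2* at 27.9 and 3.49, and *Fabp4* at 0 and 78.5. Few cells carried the last 2 genes. *Fabp4* was found in 5.56% of the cells outside, and *Bcl2* in 19.2% of those inside and 7.41% of those outside. *Cd74* was found in 61.5% of the cells inside and 40.7% of those outside. Its UMIs were uneven, as 10 of the 183 nonclassical cells held 2817 of 4245. Both sets were deep, with medians of 19934.5 and 19643.5 UMIs per cell. Further inside, levels changed step by step while the median depth went through 17296, 7728, 7742.5 and 9238 UMIs per cell, and the part of depth was not tested. *Spn* was at 158 CPM in the 24 cells with 3 to 5 UMIs of the 3 genes, 284 in the 32 cells with 6 to 10, 449 in the 52 cells with 11 to 15, and 490 in the 49 cells with 16 or more. *Nr4a1* went through 168, 337, 411 and 506 CPM over the same sets, and *Itgal* through 458, 697, 1012.5 and 1152 CPM. *Ly6c2* went the other way through 444, 403, 124 and 36.3 CPM, *F13a1*, the A chain of coagulation factor XIII, through 333, 254, 71.2 and 13.8, and the lysozyme gene *Lyz2* through 20126, 14685, 7270.5 and 7799. *Lyz2* was thus higher in the last set than in the one before. *Ccr2* went through 784, 260, 248 and 261 CPM, and 30.6% of the cells with 16 or more UMIs held it. *Cd300e* and *Chil3* did not move evenly either, as *Cd300e* peaked at 437 CPM in cells with 11 to 15 UMIs and *Chil3*, a chitinase-like protein of classical monocytes, was highest at 2992 CPM in cells with 3 to 5.

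**Figure D1:**
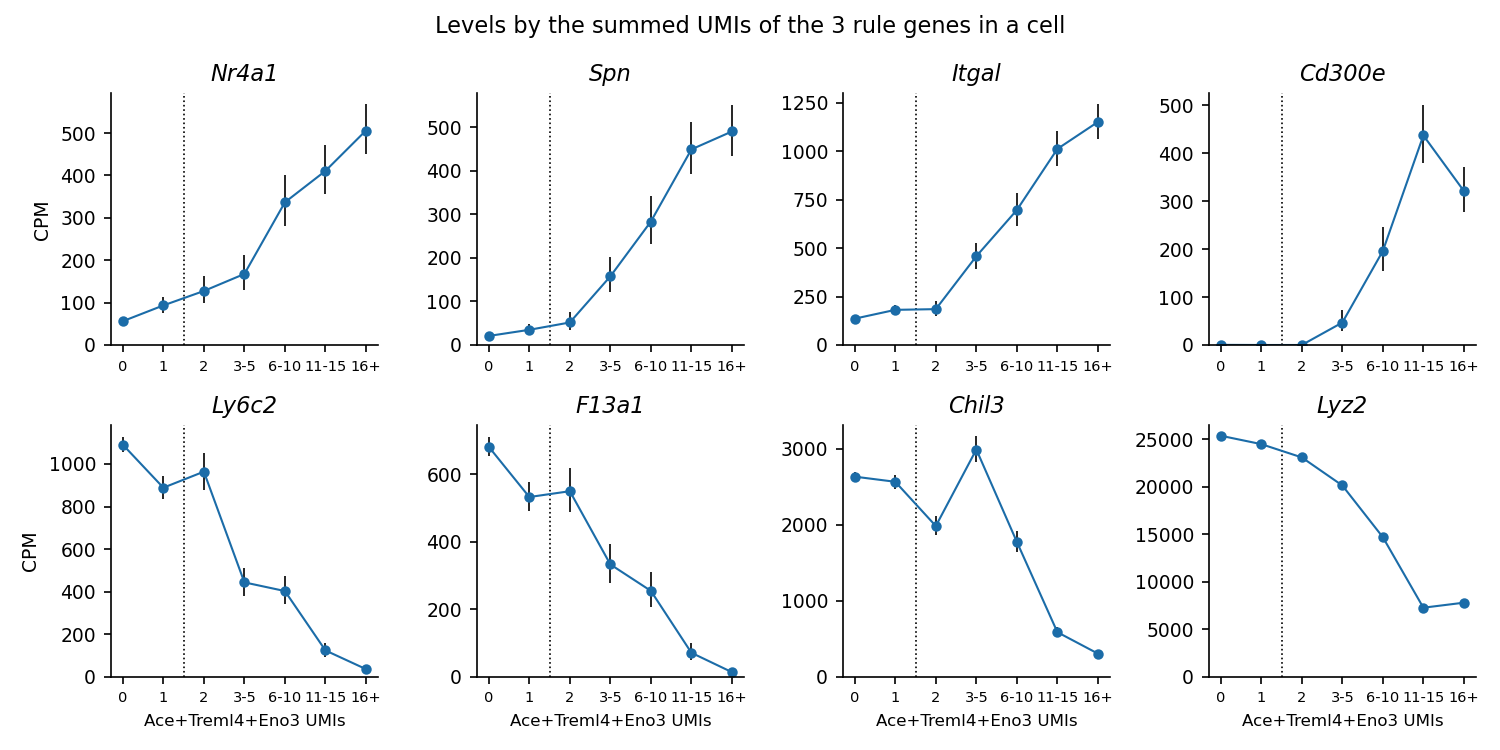
Level of 8 genes (CPM, y axis, each from 0) against the summed *Ace*, *Treml4* and *Eno3* UMIs of a cell (x axis, 7 sets of cells), with exact Poisson 95% intervals as bars and the dotted line marking the limit of 2 UMIs used by the definition. *Nr4a1*, *Spn* and *Itgal* climb across the sets, from 56.1, 20.8 and 136 CPM at 0 UMIs to 506, 490 and 1152 CPM at 16 or more, while *Ly6c2*, *F13a1* and *Lyz2* are lower at 16 or more than at 0, the set of the classical comparator, which was chosen for *Ly6c2* and *Ccr2* UMIs.

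The nonclassical cells were divided by *Ly6c2*, a division chosen after the values had been seen. In 122 of the 183 cells (66.7%, 59.3 to 73.4) no *Ly6c2* UMI was found, and in 61 cells there was at least 1, with 3 or more UMIs in 51 of them. Cells without *Ly6c2* were the shallower ones, with a median of 7789.5 UMIs against 20607. The genes of the definition are given for both sets as a description of the choice, with a median of 14 UMIs of *Ace*, *Treml4* and *Eno3* without *Ly6c2* and 4 with it. *Ace* was at 705 CPM (657 to 755) in cells without *Ly6c2* and 156 CPM (135 to 180) in cells with it, *Eno3* at 455 (417 to 496) and 44.8 (33.7 to 58.5), and *Treml4* at 356 (322 to 392) and 119 (100.1 to 139.9). The median share of mitochondrial UMIs was 2.15% without *Ly6c2* and 3.40% with it. When every cell was first thinned to 3000 UMIs, 103 of 2113 blood cells met the definition, all 103 were among the 183, and 11 of them had held a *Ly6c2* UMI before thinning.

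**Figure D2:**
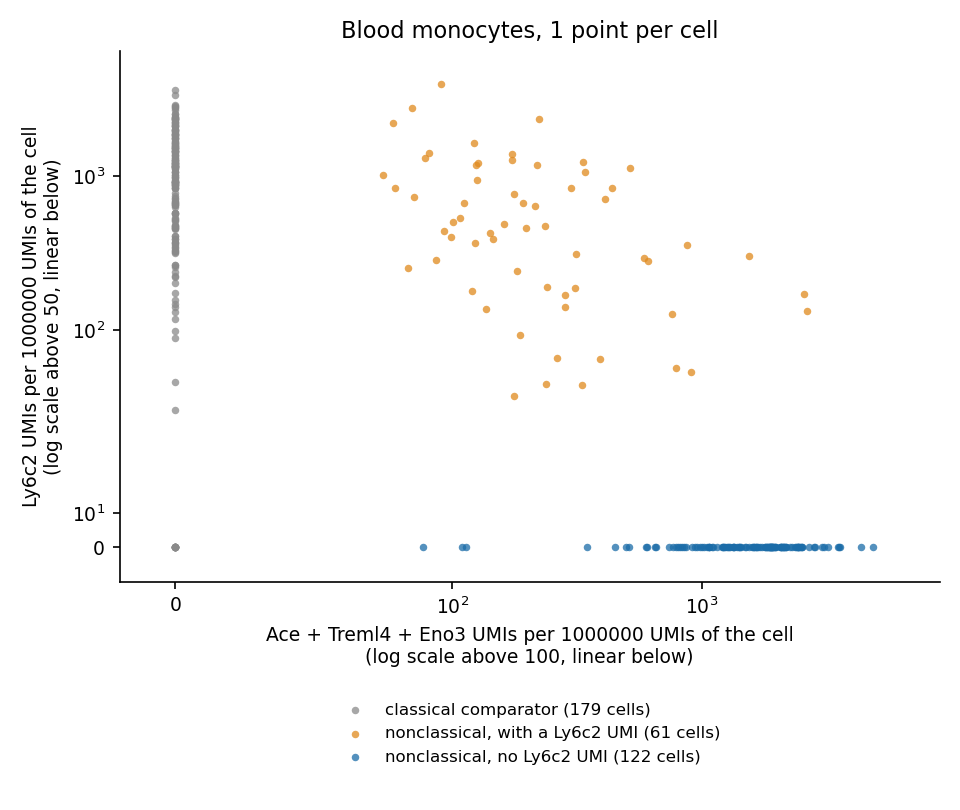
Each point is 1 blood monocyte, with the summed level of *Ace*, *Treml4* and *Eno3* on the x axis and of *Ly6c2* on the y axis, both in UMIs per 1000000 UMIs of the cell on axes that are logarithmic above 100 and 50. Most of the 122 nonclassical cells without *Ly6c2* lie to the right at the bottom, the 61 with *Ly6c2* spread between them and the 179 classical cells, which stand at 0 on the x axis by definition.

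Cells without *Ly6c2* held little of some other classical transcripts, while *Lyz2*, at 7518 CPM, and *Chil3*, at 472 CPM, were still found in them. *Lyz2* was held by 100% of these cells and *Chil3* by only 19.7%. *Ccr2* was also still found in them, at 195 CPM and in 29.5% of the cells. Fibronectin, *Fn1*, was at 13.02 CPM (7.29 to 21.5) in them, 611 CPM (568 to 657) in cells with *Ly6c2* and 1278 CPM (1240 to 1316) in classical cells. *F13a1* was at 13.9, 443 and 681 CPM, and the proteoglycan gene *Vcan* at 11.3, 272 and 339 CPM. The order was the same at equal depth. At 2000 UMIs per cell *Fn1* was held by 0.826% of the cells without *Ly6c2*, 44.3% of those with it and 69.3% of the classical cells. At 1000 UMIs per cell, *F13a1* was held by 0.82% of the cells without *Ly6c2*, 44.3% of those with it and 48.6% of the classical cells. Markers of the nonclassical state went the other way. *Spn* was at 484 CPM (445 to 526) without *Ly6c2*, 120 CPM (101 to 141) with it and 20.8 CPM (16.2 to 26.3) in classical cells, and *Itgal* at 1080, 384.5 and 136 CPM. *Nr4a1* was at 453, 193 and 56.1 CPM and *Fcgr4*, the IgG receptor FcγRIV, at 560, 138 and 48.7 CPM. For all 7 genes the cells with *Ly6c2* stood between the other 2 sets. Single cells of the sets overlapped. *Nr4a1* reached 1878 CPM in a cell without *Ly6c2*, 1197 in one with it and 1283 in a classical cell, with medians over cells of 385, 117 and 43.8, and the lowest value was 0 in each set. *Spn* had medians of 489.5, 71.1 and 0 CPM per cell and highest values of 1536, 646 and 297, and *Itgal* medians of 1110, 294 and 105. *Fn1* did not pass 274 CPM in any cell without *Ly6c2*, while the median classical cell held 767 CPM. *Csf1r*, which every set had to hold and whose level is thus a description, was at 690, 469 and 282 CPM. *Cd300e* was found mostly in the cells without *Ly6c2*, at 414, 14.1 and 0.297 CPM. Depth and doublet scores moved with this division, and their part in it was not tested. Scrublet scores, which are higher for cells that resemble simulated pairs of cells, had a median of 0.0294 in cells with *Ly6c2*, 0.0076 in cells without it and 0.0200 in classical cells, and 3 of the 183 cells, 2 of them with *Ly6c2*, were among the 42 blood cells with the highest scores.

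Compared with the classical cells, 556 of 8870 genes (6.27%) were at least 2-fold higher with a counting interval off 0 in the nonclassical cells, and 293 (3.3%) were at least 2-fold lower. With cells lacking *Ly6c2* alone, 942 of 8525 genes (11%) were higher and 679 (7.96%) lower, and with cells holding *Ly6c2*, 223 of 8424 (2.65%) and 174 (2.07%). The median log2 ratio of all genes was 0.10, 0.13 and 0.05 in these comparisons. The 556 higher and 293 lower genes became 488 and 107 when 1 UMI of *Ace*, *Treml4* and *Eno3* sufficed. They were 863 and 530 when cells were first thinned to 3000 UMIs, and 772 and 503 with each cell weighted equally. The classical cells had no UMI of *Ace*, *Treml4* and *Eno3* by definition, so no ratio is given for these genes. *Ly6c2* and *Ccr2* had in turn been used to choose the classical cells. Without that condition the comparator held 203 cells, and *Ly6c2* was at 381 CPM in nonclassical and 915 CPM in comparator cells, a log2 ratio of −1.26 (−1.37 to −1.16), and *Ccr2* at 509 and 1017 CPM, a log2 ratio of −0.998.

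Among genes outside the definitions, *Cd300e*, an activating receptor of the CD300 family, had the largest log2 ratio of nonclassical to classical cells, at 9.46 (6.98 to 14.8), with 494 UMIs against 1. It was followed by *Slc12a2*, a sodium, potassium and chloride cotransporter, at 7.45 (5.58 to 10.5) and *Itgax*, the integrin chain CD11c, at 5.996 (4.42 to 8.29). A pair of dual-specificity phosphatases that switch off MAP kinases ranked 4 and 6, *Dusp16* at 137 against 2.97 CPM and *Dusp5* at 60.7 against 2.08 CPM. *S1pr5*, a receptor for sphingosine 1-phosphate that guides cells out of bone marrow into blood, ranked 5 and was at 93.4 against 2.67 CPM, and *Pparg*, a lipid-sensing nuclear receptor, at 58.1 against 2.08 CPM. The remaining genes of the 12 highest were *Tgm2*, a transglutaminase with a log2 ratio of 4.72, the adhesion molecule *L1cam* at 4.56, the lymphotoxin chain *Ltb* at 4.50, and the antiapoptotic genes *Bcl2a1b* at 4.70 and *Bcl2a1a* at 4.40. *Bcl2a1a* and *Bcl2a1b* are near-identical copies, so the division of reads between them is uncertain. For all 12 genes the level was highest in cells without *Ly6c2*, between 93.8 CPM for *Dusp5* and 414 CPM for *Cd300e*, and the cells with *Ly6c2* held between 5.81 CPM of *Itgax* and 29.1 CPM of *Dusp5*. Not all of them were particular to monocytes in blood. In NK cells *S1pr5* stood at 150 CPM, *Itgax* at 72.8 CPM and *Dusp5* at 60.6 CPM. *Ltb* was at 805 CPM in B cells, 585 CPM in T cells and 219.5 CPM in neutrophils, while *Cd300e*, *Pparg* and *Slc12a2* were at or below 6.74 CPM in T, B and NK cells and in neutrophils.

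Upstream sequence is shown for *Cd300e*, the highest of these genes, and for *Dusp5* and *Bcl2a1b*. The 250 bases before the RefSeq start of the latter pair hold the PU.1 motif GAGGAAGT, written in capitals on whichever strand it was read. PU.1 is the transcription factor that sets up the myeloid lineage, and its gene *Spi1* was at 693 CPM in nonclassical and 529 CPM in classical cells. The sequences are from RefSeq on GRCm38.p6, 5′ to 3′ on the strand of the gene, at chr11:115062040-115062289 on the minus strand for *Cd300e*, chr19:53528895-53529144 on the plus strand for *Dusp5*, and chr9:89199023-89199272 on the plus strand for *Bcl2a1b*. GENCODE places the starts of these genes at 115062177, 53529109 and 89199209, so part of each stretch lies inside the gene as GENCODE draws it.
Cd300e: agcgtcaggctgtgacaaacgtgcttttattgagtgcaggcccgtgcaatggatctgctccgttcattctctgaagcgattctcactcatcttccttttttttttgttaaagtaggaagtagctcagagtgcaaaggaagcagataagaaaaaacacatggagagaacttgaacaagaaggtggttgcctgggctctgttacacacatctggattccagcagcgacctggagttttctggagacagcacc
Dusp5: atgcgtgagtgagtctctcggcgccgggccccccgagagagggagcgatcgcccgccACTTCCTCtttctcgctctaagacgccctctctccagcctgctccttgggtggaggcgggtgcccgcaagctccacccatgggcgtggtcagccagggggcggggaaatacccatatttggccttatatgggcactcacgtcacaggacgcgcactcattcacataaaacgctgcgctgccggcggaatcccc
Bcl2a1b: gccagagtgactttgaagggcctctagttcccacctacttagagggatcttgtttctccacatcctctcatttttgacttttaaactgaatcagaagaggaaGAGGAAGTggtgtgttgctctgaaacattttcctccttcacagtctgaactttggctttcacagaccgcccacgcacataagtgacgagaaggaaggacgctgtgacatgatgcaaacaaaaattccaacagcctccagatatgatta
Searched on both strands, GAGGAAGT was present upstream of 3 of the 10 genes that had a sequence here among the 12 highest, and the other one was *Bcl2a1a*, the near copy of *Bcl2a1b*. *Slc12a2* and *Tgm2* were not searched. It was present in 2.79% of all 27025 genes with an upstream sequence, 3.52% of the 6901 compared, 5.94% of 421 higher genes and 6.25% of 224 lower genes. AAAGGTCA, the site of NR4A1 monomers, was in 1.55% of all genes, 0.713% of higher genes, 0.893% of lower genes and none of the 10. TTGCNNCAA, a C/EBP motif, was in 1.98% of all genes, 2.14% of higher genes, 1.34% of lower genes and none of the 10. A match of letters is a description and no evidence of binding.

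The 12 lowest genes were *Ecm1*, *Slpi*, *Padi4*, *Ifitm1*, *Tmem154*, *Ccr1*, *Tbxas1*, *Ctdspl*, *Timp2*, *Fn1*, *Slc16a6* and *Knstrn*, with log2 ratios from −2.44 to −1.93. Not all of them were particular to classical monocytes. In neutrophils *Ifitm1* was at 4554, *Slpi* at 3189, *Ccr1* at 505 and *Padi4* at 269 CPM. *Timp2*, *Tmem154* and *Slc16a6* were at 257, 152 and 50.5 CPM there. Classical cells held these genes at 163, 849, 135, 46.6, 83.5, 25.8 and 27.9 CPM. *Ecm1*, *Tbxas1*, *Ctdspl*, *Fn1* and *Knstrn* were lower in neutrophils than in classical cells. *Ccr1*, a receptor for inflammatory CC chemokines, was at 31.8 CPM in nonclassical and 135 CPM in classical cells, and at 6.08 CPM in cells without *Ly6c2*. *Tmem154* and *Slc16a6* had no UMI in the cells without *Ly6c2*, with a limit of 2.60 CPM from 3 counts, against 25.8 and 27.9 CPM in classical cells. Part of this list rested on few classical cells. In 10 of the 179 classical cells and 5 of the 183 nonclassical cells there were 5 or more UMIs of the complement genes *C1qa*, *C1qb* and *C1qc*, which tissue macrophages express, and the 2 classical cells with the most *Slpi*, a secreted protease inhibitor, held 1252 of its 2859 UMIs. Without these 10 classical cells the log2 ratio was −1.27 instead of −2.37 for *Slpi*, −0.63 instead of −2.44 for the extracellular matrix protein *Ecm1*, −0.36 instead of −2.03 for the metalloproteinase inhibitor *Timp2*, and −1.49 instead of −2.003 for *Fn1*. *C1qa* itself was at 46.3 CPM in nonclassical and 220 CPM in classical cells, and its log2 ratio went from −2.25 to 4.84 without these 10 classical cells. They were left out for their C1q UMIs while the 5 nonclassical cells were kept, so this rise was fixed by the setting and is no finding.

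**Figure D3:**
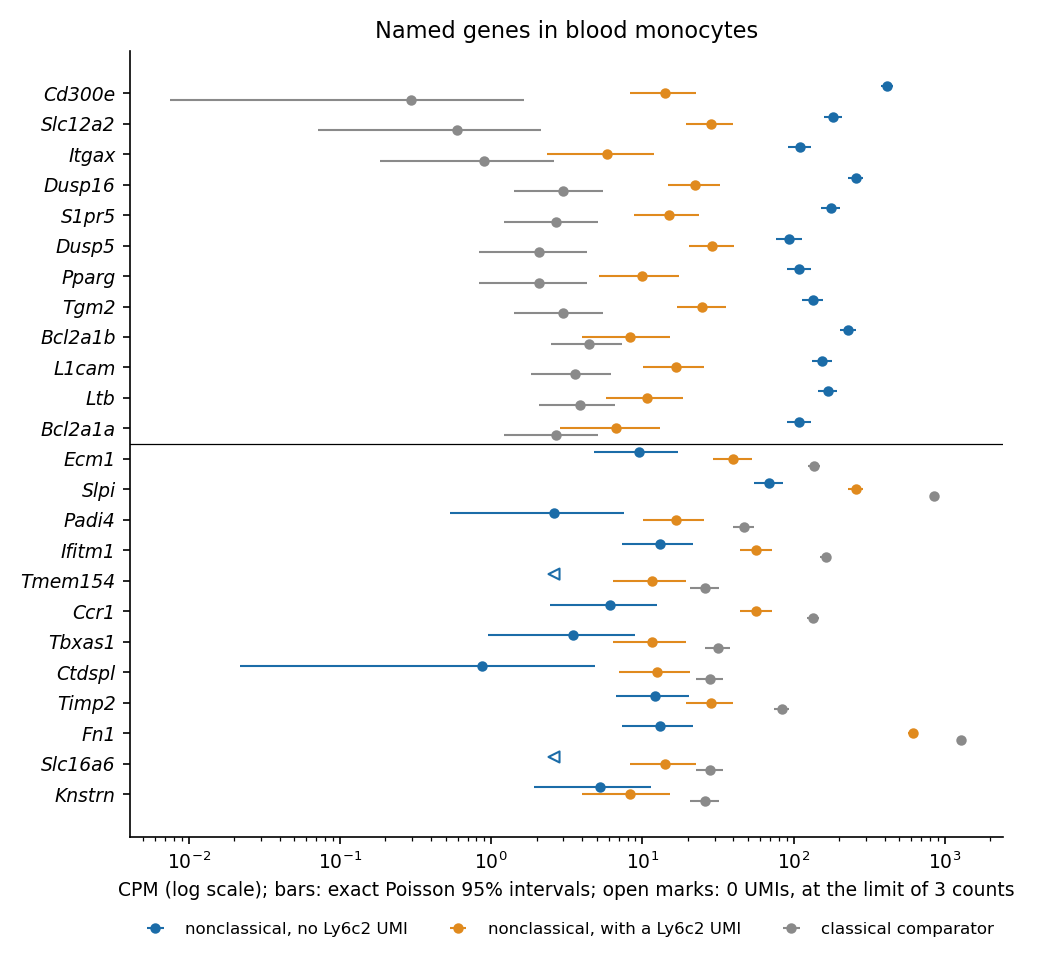
Levels (CPM, logarithmic x axis) of the 12 genes with the largest and the 12 with the smallest ratio of nonclassical to classical cells (y axis), with exact Poisson 95% intervals as bars and an open mark at the limit of 3 counts where there was no UMI. In the upper 12 genes the cells without *Ly6c2* stand to the right of the other sets, and in the lower 12 the classical cells do, with the cells holding *Ly6c2* in between.

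Marker lists are given for the cells without and with *Ly6c2*, with counts that the choice of the cells partly fixed. Counts of a list are to be read against the share of all genes called in the same comparison, 6.27% higher and 3.3% lower for all nonclassical cells, 11% and 7.96% for cells without *Ly6c2*, and 2.65% and 2.07% for cells with it. All 20 genes of the nonclassical list were at least 2-fold higher than in classical cells, with a median log2 ratio of 2.92, but 4 of them belong to the definition and the rest were listed with earlier results of these data known. The count and the median include *Ace*, *Treml4* and *Eno3*, which the classical cells lacked by definition. In cells with *Ly6c2*, 13 of the 17 compared were higher. Of 19 classical genes compared, 8 were lower in all nonclassical cells, 17 in cells without *Ly6c2* and 2 in cells with it. The list holds *Ly6c2* and *Ccr2*, which chose the comparator, and *Ly6c2* also made the division, so these genes were partly fixed beforehand. The exceptions in cells without *Ly6c2* were *Ifitm6*, at 494 against 614 CPM, and *Tmem176b*, at 141 against 157 CPM. *S100a4* and *S100a6*, calcium-binding proteins of classical monocytes, were at 1453 and 1273 CPM in cells without *Ly6c2*, 3032 and 3561 CPM in cells with it, and 3087 and 4023 CPM in classical cells.

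Of 32 transcription factors compared, 10 were higher in nonclassical cells, 1 was lower and 21 were within 2-fold or had an interval over 0. *Tcf7l2*, a factor of the WNT pathway, had a log2 ratio of 3.26 (2.80 to 3.75), with 207.5 CPM in cells without *Ly6c2*, 46.5 CPM in cells with it and 13.1 CPM in classical cells. The others that were higher were *Pparg*, *Nr4a1*, *Id3*, *Pou2f2*, *Bcl6*, *Mef2c*, *Klf4*, *Nfkb1* and *Runx3*. The last was at only 1.04 (0.61 to 1.47), at 0.55 in cells without *Ly6c2* and at −0.27 (−0.98 to 0.40) when cells were thinned first. *Id2*, an inhibitor of helix-loop-helix factors, was lower at −1.01. *Cebpb*, which keeps nonclassical monocytes alive, was at 1524 against 1022 CPM, a log2 ratio of 0.58 (0.51 to 0.64), and *Klf2*, *Irf8* and *Spi1* had ratios of 0.42, 0.44 and 0.39. *Cebpa* was at 39.9 CPM in cells without *Ly6c2* and 106 CPM in classical cells, −1.41 on the log2 scale.

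Of 22 adhesion genes, 7 were higher and 3 lower, with a median log2 ratio of 0.52. *Itgal* was higher by 2.41 (2.26 to 2.56) while its partner chain *Itgb2* was higher by 0.77 (0.66 to 0.89), and the alternative partner *Itgam* stood at −0.07 (−0.22 to 0.08). *Pecam1*, an endothelial and leukocyte adhesion molecule, was at 24.6 against 1.19 CPM, the tetraspanin *Cd9* at 202 against 19.9 CPM, *Ceacam1* at 278 against 76.4 CPM, and the integrin chain *Itgb1* at 396 against 190 CPM. The adhesion molecule *Icam2* was among the lower ones, at −1.69. Of 13 chemokine and lipid mediator receptors, 3 were higher and 4 lower. *Cx3cr1* was higher by 1.67 (1.47 to 1.87), *Cxcr4*, which holds cells in bone marrow, by 1.42 (1.12 to 1.73), and *S1pr5* by 5.13, while *Ccr1*, *Ccr2*, *Cxcr2* and *C3ar1* were lower. *Ccr2* had chosen the comparator and did not reach 2-fold without that condition.

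Of 19 growth factor and cytokine receptors, 5 were higher and 1 lower. Besides *Csf1r*, which the definition used, these were *Tgfbr1* at 1.95, *Tgfbr2* at 1.51, *Tnfrsf1b* at 1.22 and *Il10ra* at 1.12, and the decoy receptor *Il1r2* was lower with 5 against 40 UMIs. Of 14 cytokine and chemokine genes, 2 were higher and 5 lower. *Il1b* was at 99.7 against 21.98 CPM, a log2 ratio of 2.18 (1.80 to 2.58), but neutrophils of the same library held 1043 CPM. *Ccl9* was at 315 against 662 CPM, with 134 CPM in cells without *Ly6c2*. *Ccl2*, *Ccl3*, *Osm* and the platelet chemokine *Pf4* were also lower, *Pf4* turning to 0.63 when 1 UMI of *Ace*, *Treml4* and *Eno3* sufficed. Only 8 of the 179 classical cells held a UMI of *Ppbp* or *Pf4*. *Ccl5* was higher, with 162 of its 168 UMIs in 2 cells. *Ccl5* turned to the lower side in 4 settings, at −3.95 without the highest doublet scores, −0.58 without cells holding *Ppbp* or *Pf4*, −0.75 with equal weights and −2.95 for cells without *Ly6c2*. Among 7 Fc receptor genes compared, *Fcgr4* was higher by 2.82 (2.58 to 3.07), *Fcgr3* was at −0.53 and *Fcgr1* at −0.53, the last at −1.48 in cells without *Ly6c2*. *Fcrls* had 0 UMIs against 34, and was at 0.21 (−0.48 to 0.91) when 1 UMI of *Ace*, *Treml4* and *Eno3* sufficed. Among 12 Toll-like receptor and adaptor genes, *Tlr7*, which senses RNA, was at 122 against 52.0 CPM, and *Tlr2* and the coreceptor *Cd14* were lower at −1.18 and −1.46. *Tlr7* differed little within the nonclassical cells, at 125 and 120 CPM without and with *Ly6c2*.

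Survival genes differed on both the antiapoptotic and the proapoptotic side. Of 19 compared, 6 were higher and 1 lower, with a median log2 ratio of 0.35. *Bcl2*, the founding antiapoptotic gene, was at 111 CPM in cells without *Ly6c2*, 31.6 CPM in cells with it and 3.56 CPM in classical cells, though NK cells and T cells held 453 and 382 CPM. *Bcl2a1d*, a further copy of the *Bcl2a1* family, was higher by 3.55, and the proapoptotic genes *Pmaip1* and *Bbc3* were higher too, by 2.07 and 1.51. *Bad* was lower at −1.05, and *Mcl1*, the most abundant gene of the list by UMIs, was at 686 against 664 CPM.

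Antigen presentation genes of class I and class II had median log2 ratios of 0.46 and 0.43. The class II median was 0.04 in cells without *Ly6c2* and 0.18 in cells with it, and the class I median 0.56 and 0.29. Of 14 class I genes, 4 were higher and none lower. *H2-K1* was higher by 1.11 (1.03 to 1.19), *H2-Q7* by 3.94 (3.36 to 4.58) with 280 against 26 UMIs, and *H2-Q6* and *H2-Q4* by 4.71 and 1.17. The *H2-Q* genes are close copies of each other, so that their single values are uncertain. *B2m* was at 3892 CPM in cells without *Ly6c2*, 2202 in cells with it and 1604 in classical cells. Of 11 class II genes, only *Ciita* passed 2-fold, on 29 against 20 UMIs. Its ratio was −0.80 (−2.56 to 0.64) when cells were thinned before the definitions were applied. In cells without *Ly6c2* 5 were higher, among them *H2-Aa* at 787 against 316 CPM, but 868 of its 907 UMIs lay in 10 of the 122 cells and 1004 of 1065 in 10 of the 179 classical cells.

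Of 15 complement genes, 1 was higher and 5 lower, the higher one being *Itgax*, and the lower ones *C1qa*, *C1qb*, *C1qc*, *C3ar1* and the properdin gene *Cfp*, at 68.8 against 239 CPM. The 3 C1q genes were at 4.84, 4.90 and 6.68 without the 10 classical cells named above. Those cells were left out for their C1q UMIs on the classical side only, so this turn was fixed by the setting. Of 17 scavenging and efferocytosis genes, 4 were higher and 3 lower. The scavenger receptor *Cd36* was at 205 CPM in cells without *Ly6c2*, 11.6 CPM in cells with it and 21.7 CPM in classical cells, *Cd300ld* at 466, 127 and 65.1 CPM, and the cholesterol exporter *Abcg1* at 115, 49.0 and 31.2 CPM. Of 22 lipid and lysosome genes, 3 were higher and 1 lower. The fatty acid-binding protein gene *Fabp4* was held by 50.4% of cells without *Ly6c2*, 1.64% of cells with it and 1.12% of classical cells at 2000 UMIs per cell, and 2 classical cells held 101 of the 110 UMIs of that group. Against the 203 comparator cells chosen without *Ly6c2* and *Ccr2*, its log2 ratio was −0.41 instead of 2.55. *Ctsb*, a lysosomal protease, was at 1608, 858 and 585 CPM, and *Apoe* at 2334, 1243 and 1158 CPM, 1.01 above classical cells on the log2 scale in the cells without *Ly6c2*.

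Calls of interferon-stimulated and glycolysis genes between all nonclassical and classical cells are to be read against 6.27% of all genes higher and 3.3% lower. Of 28 interferon-stimulated genes, *Ifit2* was higher on 27 against 18 UMIs but at −0.20 (−1.34 to 0.82) when cells were thinned first. *Ifit1* was lower on 22 against 65 UMIs, and the most abundant one, *Ifitm3*, was at 3942 against 3968 CPM. In cells without *Ly6c2*, 7 of the 28 were lower, *Ifi47* among them at 15.6 against 52.3 CPM. Of 18 glycolysis genes, *Pfkfb3* and the lactate exporter *Slc16a3* were higher and none was lower, and *Gapdh* was at 975 against 1197 CPM. The NADPH oxidase genes *Cybb*, *Cyba*, *Ncf1* and *Ncf4* were within 2-fold, with log2 ratios of 0.27, −0.13, −0.38 and −0.20, whereas 6 of the 13 oxidase and granule genes compared were lower and none higher, *Prtn3* and *Lcn2* among them at −1.46 and −1.11 and *S100a8* and *S100a9*, which both definitions limited, at −2.62 and −2.78. Of 21 immediate early and stress genes, 4 were higher and 2 lower. *Nr4a1* and *Dusp5* were joined by *Dusp2* at 25.5 against 3.86 CPM and by *Hspa1b* on 18 against 6 UMIs, *Fosb* and *Ier3* were lower, and *Fos* was at 56.4 CPM in cells without *Ly6c2*, 291 CPM in cells with it and 343 CPM in classical cells, and *Hspa8* at 1710 against 1758 CPM. Of 13 cell cycle genes, 2 were higher and 5 lower, with *Mcm6* and *Mcm7* higher on 37 and 47 UMIs and *Ube2c* lower at −1.46.

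Platelet, erythroid, T cell and B cell markers had few UMIs in the nonclassical cells, and neutrophil, tissue macrophage, dendritic cell and NK cell markers had more. Platelet genes summed to 3 UMIs over the 183 cells and 0 over the cells without *Ly6c2*, against 342 UMIs in classical cells, of which 334 were *Pf4*. A UMI of *Ppbp* or *Pf4* was found in 8 of the 179 classical cells and 1 of the 183 nonclassical cells. Erythroid genes summed to 2 UMIs, none of them in cells without *Ly6c2*, and T cell genes to 6 UMIs with *Cd3d* the most abundant. The definition itself limited *Cd3d*, *Cd3e* and *Cd79a*, so low T and B cell values are partly fixed by it. B cell genes summed to 26 UMIs and 51 in classical cells, with *Cd79b* the most abundant. The tissue macrophage list had 5 of 7 genes lower and none higher, with 377 against 1045 CPM in sum, *Trem2* the most abundant and 7 of 14 genes at 0. *C1qa*, *C1qb* and *C1qc* are 3 of these 5 genes, and 10 classical cells held 1283 of the 1289 *C1qb* UMIs, so the count and the sum rest in part on few classical cells. In the nonclassical cells 111 of 137 *C1qb* UMIs lay in 2 cells. The dendritic cell list had 1 gene higher, *Dpp4*, and 2 lower, *Cd209a* and *Clec10a*, of 6 compared, with 218 against 242 CPM in sum and *Bst2* the most abundant. The neutrophil list had *G0s2* higher and 6 of 8 lower, 698 against 3373 CPM in sum, with *S100a8*, which both definitions limited, the most abundant. Of 4 NK cell genes compared, 2 were higher in nonclassical cells, with a median log2 ratio of 1.09 and 89.98 against 42.5 CPM in sum, and 3 in cells with *Ly6c2*. They summed to 166 CPM in cells with *Ly6c2* and 10.4 CPM in cells without it, and 114 of the 115 *Gzma* UMIs lay in 2 cells with *Ly6c2*. Without the 42 blood cells with the highest Scrublet scores, the log2 ratio of *Gzma* turned to −5.09 and that of *Ccl5* to −3.95. In that setting 132 of 135 log2 ratios of named genes stayed within their counting interval and 1 other moved outside it. The part of such cells in the list counts and in the division by *Ly6c2* was not tested.

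**Figure D4:**
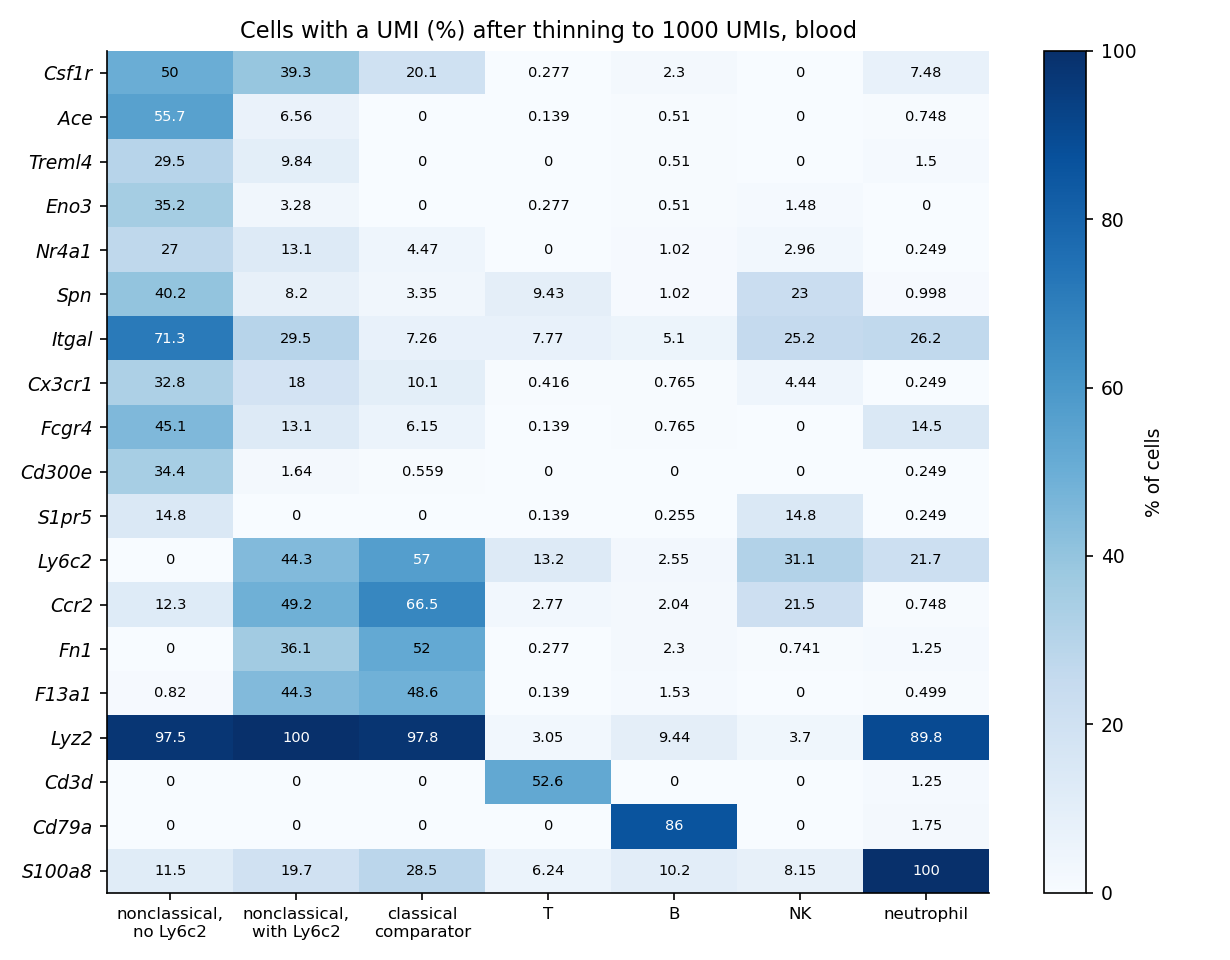
Share of cells (%, colour from 0 to 100, printed in each square) that held a UMI of a gene (rows) after thinning every cell to 1000 UMIs, for 7 sets of blood cells (columns). *Itgal* is held by 71.3% of nonclassical cells without *Ly6c2*, 29.5% of those with it and 7.26% of classical cells, and *Fn1* by 0%, 36.1% and 52.0%.

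The same definitions were applied to the other libraries, where tissue, preparation and library differ together. In bone marrow 26 of 1840 filtered cells (1.41%, 0.925 to 2.06) met the nonclassical definition, and 7 of them held all 3 of *Ace*, *Treml4* and *Eno3*. A *Ly6c2* UMI was found in 20 of the 26 (76.9%, 56.4 to 91.0), and the median sum of the 3 genes was 3 UMIs, against 11 in blood. The 26 cells were deeper than those of blood, with a median of 18894.5 UMIs against 9427. Only 1 of the 3 genes was held by 12 of them. *Itgal* was found in 24, *Spn* in 20, *Cx3cr1* in 19, *Nr4a1* in 12 and *Cd300e* in 5 of the 26. Compared with 280 classical cells of bone marrow, *Nr4a1* had a log2 ratio of 2.96 (2.30 to 3.59) against 2.51 (2.28 to 2.75) in blood, *Fcgr4* 3.12 (2.56 to 3.67) against 2.82 (2.58 to 3.07), and *Itgal* 1.92 (1.63 to 2.20) against 2.41 (2.26 to 2.56). *Spn* stood at 0.33 (−0.07 to 0.70) in bone marrow and 3.84 (3.48 to 4.22) in blood, with 81.5 CPM in classical cells of bone marrow and 20.8 CPM in those of blood. *F13a1* was lower by less in bone marrow, −0.64 against −1.54.

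At the tendon injury site 135 of 4978 filtered cells (2.71%, 2.28 to 3.20) met the definition, but markers did not bear out the label there. Only 9 of the 135 held all 3 genes, 95 held just 1 of them, and the median sum was 2 UMIs, the least allowed. *Spn* was found in 15 cells (11.1%, 6.35 to 17.7), *Cx3cr1* in 29 (21.5%, 14.9 to 29.4) and *Cd300e* in 3 (2.22%, 0.461 to 6.36), at a median of 16954 UMIs per cell, while *C1qa* was found in 49 (36.3%, 28.2 to 45.0). Against 1466 cells of the tendon that met the classical definition, *Nr4a1* was at 167 and 154 CPM, a log2 ratio of 0.11 (−0.02 to 0.25), *Cx3cr1* at −0.66 (−1.02 to −0.32) and *Fcgr4* at −1.06 (−1.32 to −0.81). *Itgal* was at 42.6 CPM in these tendon cells and 724 CPM in the blood cells. The tendon cells chosen this way are therefore described by the definition alone and not called nonclassical monocytes.

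**Figure D5:**
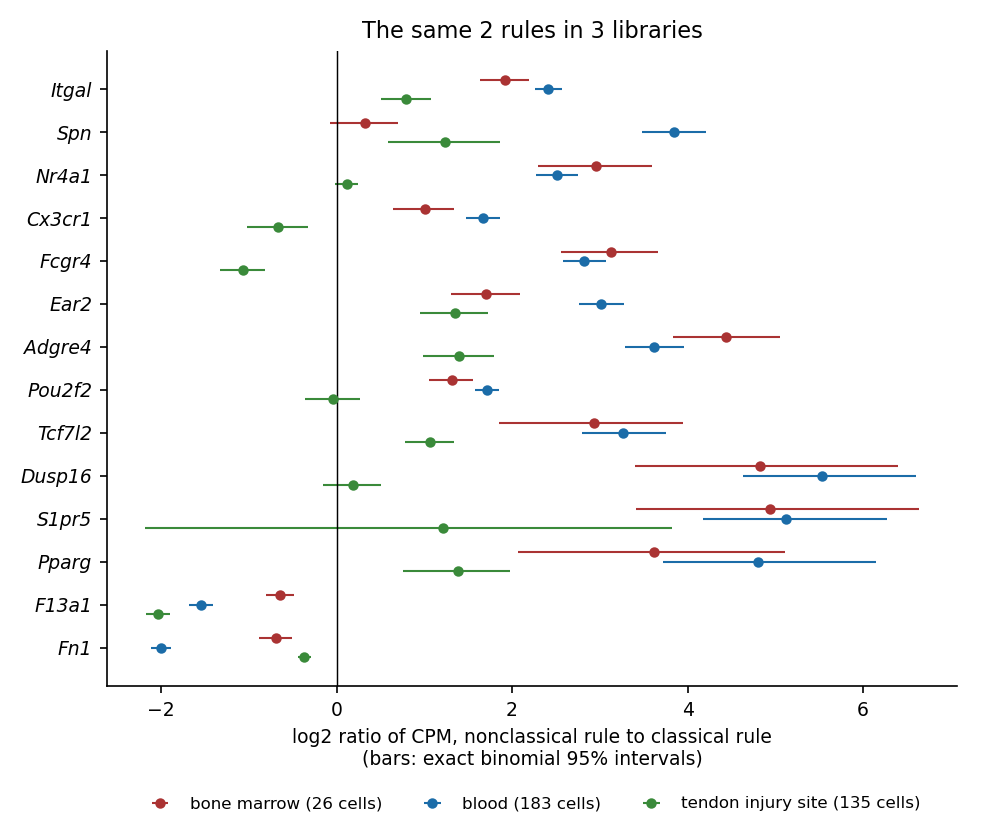
Log2 ratios of CPM (x axis) between cells that met the nonclassical and the classical definition in blood, bone marrow and the tendon, for 14 genes that neither definition used (y axis), with exact binomial 95% intervals as bars. Blood and bone marrow lie to the same side of 0 for all 14 genes, while *Cx3cr1* and *Fcgr4* lie below 0 in the tendon and *Nr4a1*, *Pou2f2* and *Dusp16* have tendon intervals that include 0, as do *S1pr5* in the tendon and *Spn* in bone marrow.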

How the data were processed

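Per the file header, the authors counted reads with Cell Ranger 5.0.1, and the deposited matrices hold raw UMI counts per gene and cell. The mm10 build is from the submitters' processing notes. Cells with at least 200 genes and at most 20% mitochondrial UMIs were kept, and no doublets were removed in the main analysis. Members and gene lists were chosen with earlier results of these data known. UMIs were summed over the cells of a set. Genes with at least 20 UMIs over both sets were compared by the log2 ratio of CPM, and a gene was higher or lower when the ratio passed 2-fold and its exact binomial 95% interval left out 0. Named genes were the 12 highest and 12 lowest ratios among genes that reached 100 UMIs over both sets and were detected in 20% or more of the cells where they were higher, without the genes of either definition, plus members of 28 lists, of which 10 genes were not found. Shares have exact Clopper-Pearson and CPM exact Poisson intervals. With 1 library for each tissue these cover counting error only, and no test was made. The steps were tested on simulated data. Alternatives covered filters, Scrublet (scanpy 1.11.5), thresholds, thinning, weighting and scaling. Positions are from GENCODE M21 on GRCm38. Python 3.11.15, numpy 2.4.6, scipy 1.17.1, pandas 2.3.3 and matplotlib 3.10.9 were used. Some genes of the lists are not reported here by name.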

Additional observations from a re-analysis of the deposited data

How the results depend on the processing

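No paired analysis was possible because each tissue had 1 library. The share of nonclassical cells, 8.38% of blood cells, was 10.9% with at least 1 UMI of *Ace*, *Treml4* and *Eno3*, 7.19% with at least 3, 4.87% when cells were first thinned to 3000 UMIs, and 5.59% for cells without *Ly6c2*, a setting chosen after seeing the data. The 556 higher genes became 863 with thinned cells and 942 for cells without *Ly6c2*. The 293 lower genes became 107 with at least 1 UMI, 530 with thinned cells, 503 with each cell weighted equally, 166 among genes with at least 50 UMIs, where fewer genes were compared, and 679 for cells without *Ly6c2*. The cause of the other changes was not tested. Of 1739 log2 ratios of named genes over 13 settings, 16 changed sign in genes called higher or lower. A further 457 moved outside their counting interval, and sign changes of genes without a call were not counted apart. *Ccl5* was at −3.95 without the highest doublet scores, −0.58 without cells holding *Ppbp* or *Pf4*, −0.75 with equal weights and −2.95 for cells without *Ly6c2*. *Gzma* was at −5.09 in the first of these, −0.15 (−0.64 to 0.36) with equal weights and −4.10 for cells without *Ly6c2*. With at least 1 UMI, *Fcrls* was at 0.21 (−0.48 to 0.91) and *Pf4* at 0.63 (0.43 to 0.83). With thinned cells, *Ciita* was at −0.80 (−2.56 to 0.64), *Ifit2* at −0.20 (−1.34 to 0.82) and *Runx3* at −0.27 (−0.98 to 0.40), all with intervals over 0. *Fabp4* was at −0.41 when the comparator was not chosen on *Ly6c2* and *Ccr2*. Without the 10 classical cells with 5 or more C1q UMIs, a setting also chosen after seeing the data, *C1qa*, *C1qb* and *C1qc* were at 4.84, 4.90 and 6.68. The 5 nonclassical cells with 5 or more C1q UMIs were kept in that setting, so the turn of these genes was fixed by it. In the cells without *Ly6c2*, 1151986 UMIs put the limit of a count of 0 at 2.60 CPM, and cells with *Ly6c2* gave 1204167 of the 2356153 UMIs of the nonclassical cells.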
